A study of Mus musculus with 4 samples.

Results

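The 10 genes Mybl1, Tcfl5, Brdt, Crem, Fhl5, Rfx2, Sox30, Tbpl1, Taf7l and Camk4 encode regulators of transcription in meiotic cells and spermatids. They were listed by name, with no threshold on a measured value, and all 10 are among the 18419 genes of the deposited table. Testis cells of male ICR mice, an outbred stock, were profiled by droplet single-cell RNA sequencing on the 10x Genomics platform, where the 3′ end of a captured transcript is tagged with a unique molecular identifier (UMI). Each of the 4 groups was 1 library of cells from several mice, so animals cannot be told apart and no test between groups was possible. A0 mice received neither agent and were given water as vehicle. A10 mice received alginate oligosaccharides (AOS), breakdown products of a seaweed polysaccharide, at 10 mg/kg body weight. B0 mice received busulfan alone, an alkylating drug that kills dividing germ cells, and BA10 mice received busulfan and then AOS at 10 mg/kg. Per the methods of the study, the mice were juvenile when busulfan was injected as a single dose, and water or AOS was given daily by gavage from the next day. The length of the dosing is given differently in its methods and in its results and is not printed here.

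Male germ cells switch on a largely testis-specific transcription programme at the pachytene stage of meiosis and again in round spermatids, before the spermatid nucleus is compacted by transition proteins and protamines. A-MYB, the product of Mybl1, and TCFL5 act at pachytene, BRDT reads acetylated histones, and RFX2 and SOX30 act from late meiosis into spermatids. TBPL1 and TAF7L are relatives of parts of the general transcription machinery. CREM, its coactivator FHL5 (also called ACT) and the calcium-dependent kinase CAMK4, which phosphorylates factors of the CREB family, act on spermatid genes. Several of the genes have a relative that most tissues use, such as Tbp for Tbpl1 and Taf7 for Taf7l.

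The libraries held 3778 to 9682 cells and 25.3 × 1000000 to 151 × 1000000 UMIs, and the median cell had 12685 UMIs in A0 and 10948 in A10, but 4214 in B0 against 17989 for BA10. Each library began at its own lower limit of UMIs per cell (7687, 6716, 2985 and 9013, respectively), so each comparison that involves B0 is also given for cells at or above 9013 UMIs, which left 7901, 6691, 448 and 3778 cells. Between 31 and 135 cell barcodes were shared by each pair of libraries. A level is the UMIs of a gene per 1000000 UMIs (CPM) over the cells named, with an exact Poisson 95% interval. Since each UMI marks 1 transcript end, levels were not divided by length, and isoforms of a gene (those of Crem, or the short testis transcript of the Camk4 locus) were not told apart. Ratios are log2 ratios with 1 CPM added. All intervals cover counting error only, not the spread between mice, and in pooled cells fewer cells of a type and less RNA per cell cannot be told apart. Cells were clustered without the 10 genes or their relatives, and 19 of 26 clusters were named from marker genes, with names written as "-like". The other clusters, with 9.22% of A0, 9.41% of A10 and more of the busulfan libraries (B0 28.5%, BA10 21%), were left unnamed. Markers of all germ cell stages were present in A0, where the 8 elongating spermatid markers summed to 46104 CPM against 386 CPM in B0 and 1501 CPM in BA10. The 5 Leydig cell markers summed to 13767 CPM in B0 and to 7.35 CPM in A0.

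Windows around transcription start sites of a RefSeq table were taken for 7 of the 10 genes. The 8 windows each had 250 bases before and 50 after the start (build GRCm38.p6). No window of Mybl1, Crem or Camk4 was searched, which does not show that the table lacks one. The 5 windows below are examples, shown for the pairs that were highest in the same cluster and had a window each (Tcfl5 and Rfx2 in cluster 4, Fhl5 and Sox30 in cluster 11) and for Taf7l, which was highest in an unnamed cluster. The windows of Brdt (GC content 64.7%) and Tbpl1 (66%) and the other window of Fhl5 (39.3%) held 0 of the motifs and are not printed. Each is written on the strand of its gene, and capitals mark matches, on either strand, to the 6 motifs searched. The full CRE, the site of CREM and CREB factors, was searched as TGACGTCA. The core of the CRE, which is also part of the full site, was searched as TGACG. The core of the MYB site was searched as CAGTTG. The core of the X-box, which RFX factors bind, was searched as GTTGCC. The core of the SOX site was searched as AACAAT, and the TATA box of promoters was searched as TATAAA.
Tcfl5, chr2:180642642-180642941, minus strand: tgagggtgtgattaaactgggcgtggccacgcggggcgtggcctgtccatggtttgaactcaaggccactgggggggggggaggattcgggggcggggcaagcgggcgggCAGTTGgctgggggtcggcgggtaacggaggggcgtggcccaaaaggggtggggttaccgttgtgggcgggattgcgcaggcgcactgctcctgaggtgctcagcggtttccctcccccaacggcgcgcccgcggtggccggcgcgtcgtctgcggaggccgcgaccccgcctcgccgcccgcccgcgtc
Rfx2, chr17:56830959-56831258, minus strand: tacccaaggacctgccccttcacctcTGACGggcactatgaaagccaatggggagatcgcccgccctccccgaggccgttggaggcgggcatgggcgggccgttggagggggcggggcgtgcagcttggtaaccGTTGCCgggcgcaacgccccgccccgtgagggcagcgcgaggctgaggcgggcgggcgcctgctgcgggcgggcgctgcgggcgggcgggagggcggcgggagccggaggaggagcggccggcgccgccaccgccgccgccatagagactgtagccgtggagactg
Fhl5, chr4:25242803-25243102, minus strand: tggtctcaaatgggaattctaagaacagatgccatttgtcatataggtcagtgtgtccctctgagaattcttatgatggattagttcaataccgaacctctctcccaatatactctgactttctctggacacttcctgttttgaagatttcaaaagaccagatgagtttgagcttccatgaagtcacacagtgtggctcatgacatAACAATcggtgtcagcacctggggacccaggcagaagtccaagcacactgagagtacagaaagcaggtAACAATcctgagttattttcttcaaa
Sox30, chr11:45980060-45980359, plus strand: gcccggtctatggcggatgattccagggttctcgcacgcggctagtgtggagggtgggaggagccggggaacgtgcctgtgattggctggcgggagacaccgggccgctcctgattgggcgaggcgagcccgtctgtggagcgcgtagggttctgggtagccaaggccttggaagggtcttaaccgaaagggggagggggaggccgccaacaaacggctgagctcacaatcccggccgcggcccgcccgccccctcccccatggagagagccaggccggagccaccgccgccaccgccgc
Taf7l, chrX:134476441-134476740, minus strand: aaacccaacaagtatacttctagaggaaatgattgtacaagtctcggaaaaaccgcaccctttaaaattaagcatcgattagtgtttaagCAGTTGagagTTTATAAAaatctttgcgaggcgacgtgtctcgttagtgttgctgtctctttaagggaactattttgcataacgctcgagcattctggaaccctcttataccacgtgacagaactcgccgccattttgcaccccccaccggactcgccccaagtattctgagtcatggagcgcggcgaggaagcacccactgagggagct
The MYB core lay at position -140 in Tcfl5 and -160 in Taf7l, counted from the start site, and 13.7% of all 32851 windows of the table hold it. Rfx2 held TGACG at -224 and GTTGCC at -116, present in 20.8% and 12.5% of all windows. Fhl5 held AACAAT at -44 and 25 (10.7% of all windows), and Taf7l held TATAAA on both strands in overlapping places at -150 and -148 (13.6%). The full CRE was in 0 of the 8 windows, which do not cover Crem or Camk4, and in 1.79% of all. The windows of Tcfl5, Rfx2 and Sox30 had a GC content of 73%, 75.7% and 70%, those of Taf7l and Fhl5 shown here 47% and 42.7%, and the median of all windows was 52.7%. These matches describe letters and were not tied to binding.

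In A0 the 10 genes were staggered along the germ cell classes, and the highest class of each was the same in A10. The A0 classes were pachytene spermatocyte-like (938 cells), late spermatocyte-like (2226), round spermatid-like (2445) and elongating spermatid-like (2508). Mybl1 (chromosome 1, 9667415 to 9700209, minus strand, GRCm38) was highest in pachytene spermatocyte-like cells at 88.1 CPM (84.3 to 91.9), stood at 52.6 CPM in late spermatocyte-like cells, and was at 5.5 and 4.9 CPM in round and elongating spermatid-like cells. Tcfl5 (chromosome 2, 180621956 to 180642708), which encodes a basic helix-loop-helix factor, had 396, 201, 61.7 and 49.9 CPM in the same order. These 2 genes fell by 18-fold and 7.94-fold from their highest to their lowest class. Brdt (chromosome 5, 107331159 to 107387058) had a flatter course of 250, 196, 167 and 58.4 CPM. Rfx2 (chromosome 17, 56775897 to 56831013), a factor of cilium and flagellum genes, was at 113 CPM (109 to 117) and 108 CPM (105 to 111) in the spermatocyte-like classes, whose intervals overlap, and at 41.3 and 28.6 CPM in the spermatid-like classes.

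Tbpl1 (chromosome 10, 22703879 to 22731938), which encodes a TATA-binding protein relative, was highest in late spermatocyte-like cells of A0 at 1564 CPM, after 1061 CPM in pachytene spermatocyte-like cells, and stood at 630 and 276 CPM in round and elongating spermatid-like cells. Taf7l (chromosome X, 134460118 to 134476490), the germ cell relative of a TFIID subunit, had 1.98 CPM in pachytene spermatocyte-like, 9.93 in late spermatocyte-like, 34.1 in round spermatid-like and 8.51 CPM in elongating spermatid-like cells. Over single clusters its highest level in A0 was 109 CPM, in the unnamed cluster 13 (106 A0 cells), which was led by Stra8, a gene of meiotic entry, but also carried 18169 CPM of Prm1. In B0 it reached 281 CPM in the unnamed cluster 18 (237 cells), whose leading genes include Stra8, Crabp1 and the histone gene Hist1h2ao. Fhl5 and Rfx2 were both at 3.98 CPM in that cluster and Brdt at 44.7 CPM.

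Crem, Camk4 and Fhl5 form the CREM group. Crem (chromosome 18, 3266048 to 3337748) had 266 CPM in pachytene spermatocyte-like, 433 in late spermatocyte-like, 710 in round spermatid-like and 256 CPM in elongating spermatid-like cells of A0. Camk4 (chromosome 18, 32934931 to 33191228) went from 11.6 and 17.5 CPM in the spermatocyte-like classes to 203 CPM in round and 132 CPM in elongating spermatid-like cells. Fhl5 (chromosome 4, 25199908 to 25242876) went from 55.1 and 82.6 CPM to 748 CPM (740 to 756) and 810 CPM (801 to 820). Crem was thus spread over all classes, 2.77-fold from the highest to the lowest, against 14.7-fold for Fhl5 and 17.5-fold for Camk4. Sox30 (chromosome 11, 45980310 to 46017994), which encodes an HMG-box factor needed for spermatid development, had 51.2, 52.4, 164 and 134 CPM. Its spermatocyte-like levels did not differ beyond their intervals (48.3 to 54.1 and 50 to 54.8 CPM).

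Over the 15 clusters with at least 50 A0 cells the peaks were spread further. Mybl1 (101 CPM) and Brdt (327 CPM) were highest in cluster 9 and Tcfl5 (427 CPM) and Rfx2 (120 CPM) in cluster 4, both pachytene spermatocyte-like. Tbpl1 was highest in the late spermatocyte-like cluster 7 (1647 CPM, beside 1638 CPM in cluster 0). Crem was highest in the round spermatid-like cluster 2 (783 CPM, beside 782 CPM in cluster 12), Camk4 in the round spermatid-like cluster 6 (271 CPM), and Fhl5 (1610 CPM) and Sox30 (216 CPM) in the elongating spermatid-like cluster 11. In A10 the highest cluster was the same for 9 of the 10 genes, and Crem was highest in cluster 12 at 742 CPM. Across these 15 clusters of A0 the Pearson correlation of log2 levels was 0.96 for Mybl1 with Tcfl5, 0.96 for Fhl5 with Camk4 and 0.95 for Fhl5 with Sox30, against -0.82 for Mybl1 with Fhl5. These correlations describe clusters of 1 library that share its free RNA.

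**Figure D1:**
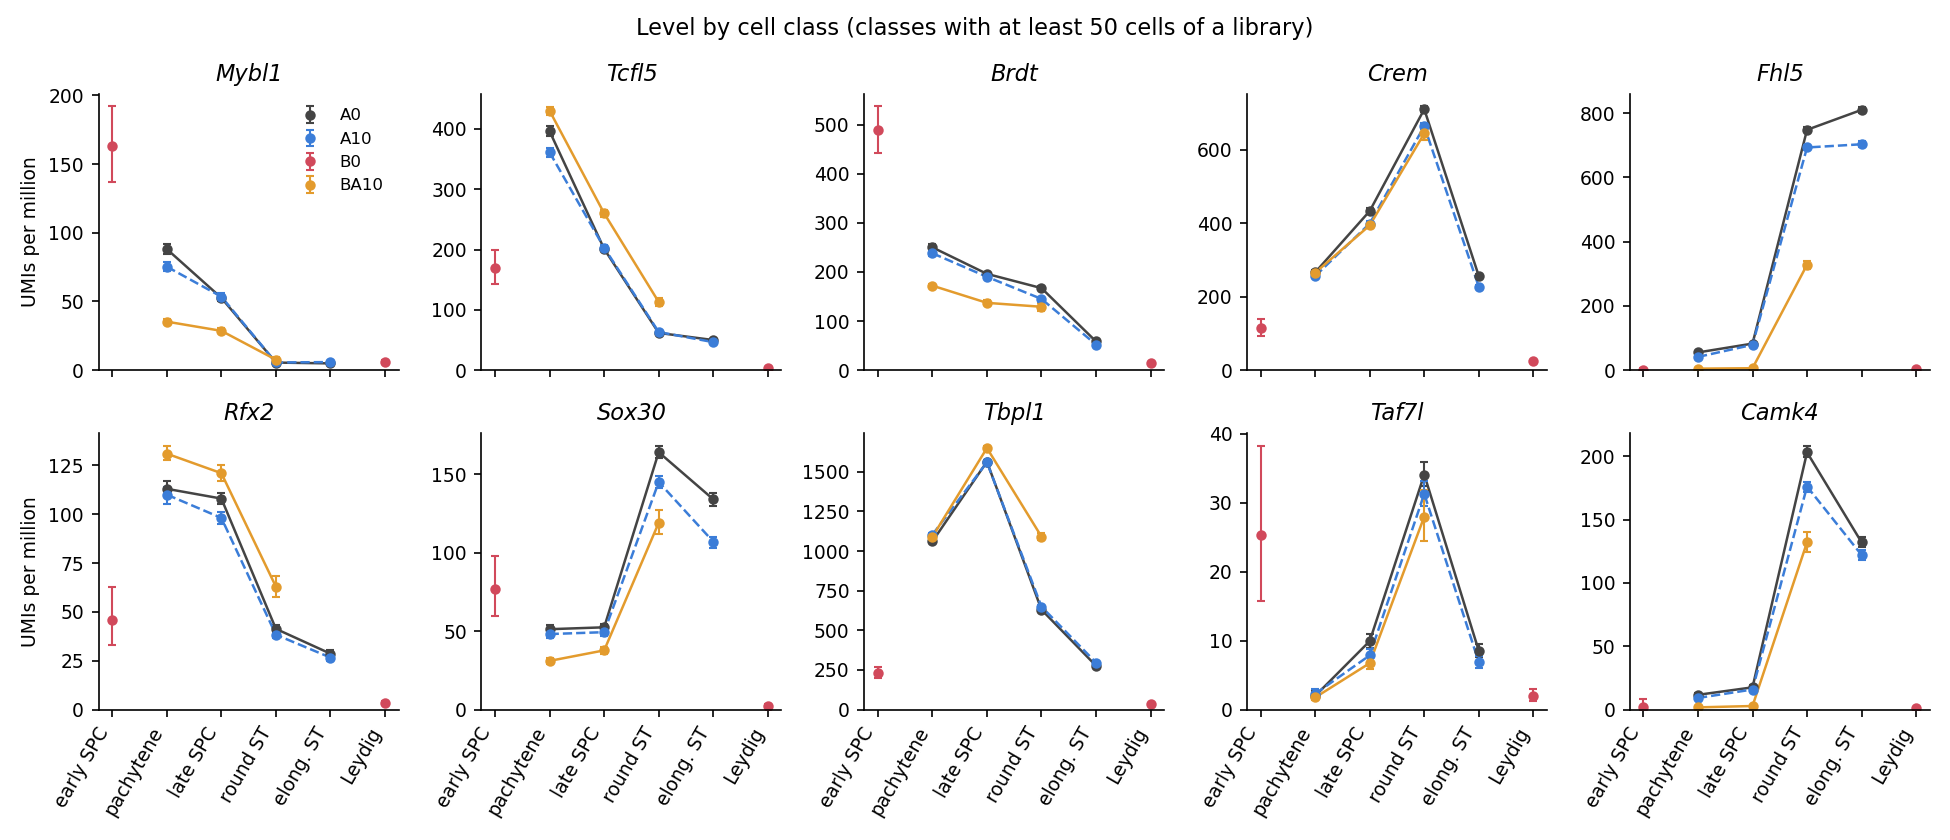
Level of each gene in UMIs per 1000000 (vertical axis, linear, a scale for each gene) against cell class (horizontal axis, SPC for spermatocyte-like and ST for spermatid-like), with points coloured by library and exact Poisson 95% intervals as bars. Mybl1, Tcfl5, Brdt and Rfx2 decline from the pachytene to the elongating class in A0 and A10, Crem, Sox30, Taf7l and Camk4 peak in the round spermatid-like class, and the B0 points of the early spermatocyte-like and Leydig-like classes show Brdt at 489 against 13.7.

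The B0 library alone held enough early spermatocyte-like cells (165) for a level. The stage and busulfan treatment cannot be told apart in a comparison of these cells with the A0 classes. In these cells Brdt was at 489 CPM (443 to 537) and Mybl1 at 163 CPM (137 to 192), both above every class of A0, while Tcfl5 was at 169, Crem at 115, Sox30 at 77, Rfx2 at 46 and Tbpl1 at 233 CPM. Taf7l had 25.3 CPM (15.8 to 38.3). Fhl5 had a single UMI (1.15 CPM, 0.0291 to 6.4) and Camk4 had 2.3 CPM (0.278 to 8.3). The 2916 Leydig-like cells of B0, a somatic type that should lack most of these genes (Crem is also used by somatic cells), were taken as the background of that library. They had 13.7 CPM of Brdt, 5.71 of Mybl1, 4.1 of Tcfl5, 33 of Tbpl1, 25.1 of Crem, 2.09 of Fhl5 and 0.805 CPM of Camk4. In the 199 Sertoli-like cells of B0 the levels were higher for Mybl1 (28.7 CPM, 18.6 to 42.4), Tcfl5 (14.9 CPM, 7.96 to 25.6) and Tbpl1 (67.8 CPM), and were 18.4 CPM for Brdt, 4.6 for Fhl5 and 0 CPM (up to 4.24) for Camk4. After every cell had been thinned to 2900 UMIs, Brdt was seen in 70.9% of the early spermatocyte-like and in 3.77% of the Leydig-like cells (85.5% and 5.42% before thinning, at medians of 4340 and 4044 UMIs), and Mybl1 in 34.5% and 1.51% (58.2% and 2.23%). The Sertoli-like shares after thinning were 3.52% for Brdt and 8.54% for Mybl1. Fhl5, at 0.606% and 0.583%, and Camk4, at 0.606% and 0.206%, had intervals that overlapped between these classes, so neither was read as expressed in early spermatocyte-like cells. The class had 0 cells in A0 and 39 in BA10, too few for a level, and no ratio is given. It depended on the clustering: with 1000 variable genes no cluster was given this name, and at a coarser resolution of 0.5 it held 107 A0 and 8 B0 cells.

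Transcripts of late spermatids were also counted in the spermatocyte-like cells of A0 and A10. Prm1, the protamine of late spermatids, stood at 2363 CPM in pachytene spermatocyte-like cells of A0, with a UMI in 100% of them, and at 38705 CPM in elongating spermatid-like cells. For each 1000 Prm1 UMIs there were 23.3 Fhl5 UMIs in the pachytene spermatocyte-like, 33.7 in the late spermatocyte-like, 131 in the round spermatid-like and 20.9 in the elongating spermatid-like cells of A0. In the same order the counts were 4.91, 7.16, 35.5 and 3.41 for Camk4, 21.6, 21.4, 28.6 and 3.46 for Sox30 and 113, 177, 124 and 6.62 for Crem. How much of any level is free RNA was not tested.

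The A10 and A0 libraries were compared to ask what AOS did in mice without busulfan, and differences were small. Fhl5 stood at 453 CPM in A0 against 389 CPM with AOS (log2 ratio -0.22, -0.23 to -0.20), Sox30 had 106 and 90.6 CPM (-0.23), Camk4 99.7 and 84.3 CPM (-0.24), Taf7l 17.4 and 14.9 CPM (-0.22) and Crem 461 and 423 CPM (-0.12). Brdt (163 and 153 CPM) and Rfx2 (68.3 and 65.2 CPM) were at -0.09 and -0.07. Tbpl1 was the single gene above its counting interval in the other direction, with 879 and 919 CPM (0.06, 0.05 to 0.08). Mybl1 (30.1 and 30 CPM) and Tcfl5 (149 CPM in both) had intervals that included 0. Of the 10 genes, 0 were past 2-fold in either direction. Among all genes at 10 CPM or more in either library, 0.0446% were higher and 0.0595% lower past 2-fold. The median of the 10 genes was -0.11 beside -0.03 for all those genes. Within the 4 germ cell classes the log2 ratios of the 10 genes lay between -0.41 (Fhl5 in pachytene spermatocyte-like cells, 55.1 to 41.1 CPM) and 0.22 (Mybl1 in elongating spermatid-like cells, with an interval from -0.03 to 0.48). Crem and Sox30 were lower in A10 in 15 of 15 clusters with at least 50 A0 cells, by medians of -0.09 and -0.13. These are 15 parts of 1 pair of libraries and not replicates.

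**Figure D2:**
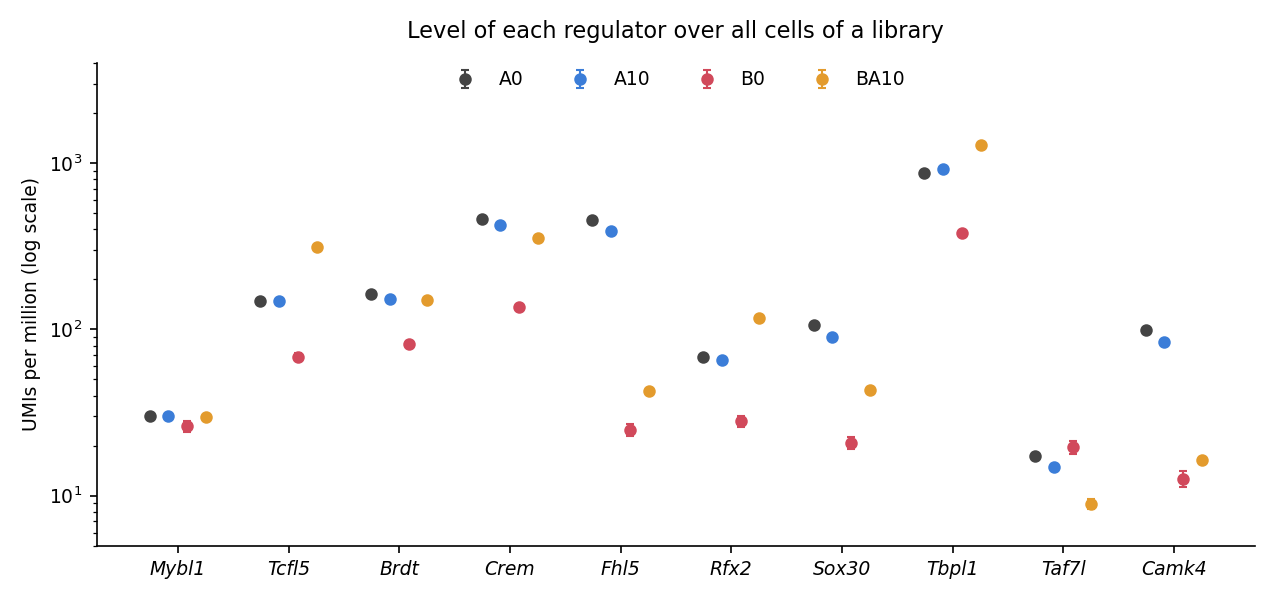
Level of each gene over all cells of a library in UMIs per 1000000 (vertical axis, log scale), with 1 point per library and exact Poisson 95% intervals as bars, many of them smaller than the point. A0 and A10 points lie close together for every gene, B0 is lowest for 9 genes, and BA10 lies above A0 for Tcfl5 (315 against 149), Rfx2 (117 against 68.3) and Tbpl1 (1295 against 879).

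Busulfan alone was compared with the control next. Over all cells Fhl5 was at 453 CPM in A0 and 25 CPM in B0 (log2 ratio -4.13, -4.24 to -4.02), Camk4 at 99.7 and 12.6 CPM (-2.89), Sox30 at 106 and 20.8 CPM (-2.30) and Crem at 461 and 136 CPM (-1.75). Rfx2 (68.3 and 28 CPM), Tbpl1 (879 and 379 CPM) and Tcfl5 (149 and 68.5 CPM) were at -1.26, -1.21 and -1.11. Brdt, with 163 and 81.3 CPM, lay at the 2-fold limit and was inside it only through the 1 CPM added. Mybl1 (30.1 and 26.1 CPM, -0.20) and Taf7l (17.4 and 19.5 CPM, 0.15) were nearest to the control. Thus 7 of the 10 genes were lower past 2-fold, where 22.7% of all genes at 10 CPM were, and 0 were higher, where 42.8% were. The median of the 10 genes was -1.23 beside 0.51 for all genes. Leydig-like cells made up 62.6% of the B0 library and 0% of A0, spermatid-like cells were 6 in B0, and the part of the cell mix in these ratios was not tested beyond the comparison at equal UMI limits.

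Among cells at or above 9013 UMIs the pattern differed. Fhl5 was at 458 CPM in A0 and 79.6 CPM in B0 (-2.51), Camk4 at 100 and 36.4 CPM (-1.44), Sox30 at 108 and 54.2 CPM (-0.98) and Crem at 467 and 357 CPM (-0.39). Mybl1 was higher in B0, with 30.7 CPM in A0 and 50.1 CPM in B0 (0.69, 0.53 to 0.85), and so were Tcfl5 (0.27, 0.19 to 0.35) and Tbpl1 (0.20, 0.17 to 0.24). Rfx2 (0.12), Brdt (0.04) and Taf7l (-0.03) had intervals that included 0. Only Fhl5 and Camk4 were then lower past 2-fold (11.7% of all genes) and 0 genes were higher past it (16.1%), and the median was 0.01 beside 0.25 for all genes. Of the 448 B0 cells behind these values, 322 (71.9%) were in the unnamed cluster 1, whose leading genes include haemoglobin genes (Hba-a1, Hbb-b1) and the Sertoli cell genes Cst9 and Aard, while its best marker score was that of late spermatocytes.

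BA10 was set against B0 to ask how AOS after busulfan compared with busulfan alone. Over all cells Tcfl5 had 68.5 CPM in B0 and 315 CPM in BA10 (log2 ratio 2.18, 2.11 to 2.26), Rfx2 28 and 117 CPM (2.03), Tbpl1 379 and 1295 CPM (1.77), Crem 136 and 354 CPM (1.38) and Sox30 20.8 and 43.5 CPM (1.03). Brdt (81.3 and 151 CPM), Fhl5 (25 and 42.4 CPM), Camk4 (12.6 and 16.3 CPM) and Mybl1 (26.1 and 29.6 CPM) were at 0.88, 0.74, 0.35 and 0.17. Taf7l was lower in BA10, with 19.5 CPM in B0 and 8.88 CPM in BA10 (-1.05, -1.20 to -0.90). Past 2-fold, 5 of the 10 genes were higher (18.8% of all genes) and 1 was lower (39.5%), with a median of 0.96 beside -0.38 for all genes. The lower gene, Taf7l, reached the minimum of 10 CPM through B0 alone. Leydig-like cells were 62.6% of the cells in B0 but 1.27% in BA10, and the 5 Leydig cell markers summed to 13767 and 375 CPM. The part of this mix was not tested beyond the common UMI limit.

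At the common limit of 9013 UMIs, 6 of these ratios had the other sign. Tcfl5 (186 CPM in B0 and 315 in BA10, 0.76), Rfx2 (75.4 and 117 CPM, 0.63) and Tbpl1 (1021 and 1295 CPM, 0.34) were still higher in BA10, with intervals above 0. Camk4 (36.4 and 16.3 CPM, -1.11), Fhl5 (79.6 and 42.4 CPM, -0.89), Mybl1 (50.1 and 29.6 CPM, -0.74), Sox30 (-0.31) and Brdt (-0.18) were lower in BA10, and Crem (357 and 354 CPM) was at -0.01 with an interval from -0.07 to 0.05. Taf7l stayed lower, at -0.89. The counts past 2-fold were 0 higher (1.14% of all genes) and 1 lower, Camk4 (14.1%), with a median of -0.24 beside -0.10. Of the 3 clusters with at least 50 cells from each of these libraries, cluster 1 held the most (491 B0 cells at a median of 9843 UMIs and 400 BA10 cells at 12696 UMIs). In it Rfx2 (68.4 and 108 CPM, 0.65), Tcfl5 (149 and 212 CPM, 0.50), Tbpl1 (1179 and 1486 CPM, 0.33) and Crem (402 and 439 CPM, 0.13) were higher in BA10. Camk4 (38.2 and 19.2 CPM, -0.96), Mybl1 (42.7 and 26.5 CPM, -0.67), Fhl5 (80.3 and 52.9 CPM, -0.59) and Brdt (155 and 135 CPM, -0.20) were lower there, and the median of the 10 genes was -0.12 beside -0.01 for all genes. In the other 2, cluster 20 (endothelial and stromal genes) and cluster 19 (macrophage genes), the medians of the 10 genes were 0.12 and 2.23 beside -0.53 and -0.61, with median UMIs of 4208 and 4026 in B0 against 16298 and 14278 in BA10. These comparisons within clusters were chosen after the data were seen.

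**Figure D3:**
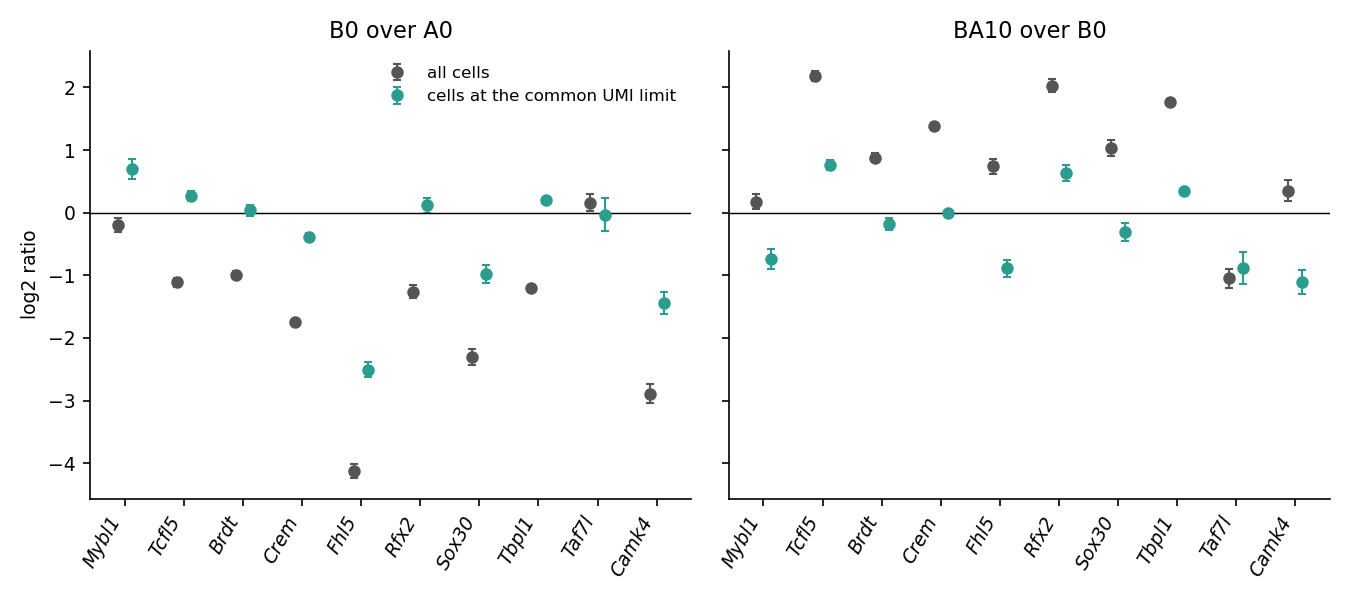
Log2 ratio of each gene for B0 over A0 (left) and BA10 over B0 (right) over all cells and over cells at or above the common limit of 9013 UMIs, with 95% counting intervals as bars and a line at 0. Fhl5 and Camk4 stay lowest in B0 over A0 in both sets of cells, and 6 of 10 genes change sign in BA10 over B0.

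BA10 was last compared with the control, where both libraries held deep cells given the same germ cell class names. In the classes compared below, the A0 and BA10 cells came mostly from different clusters. Stage within a class and treatment therefore cannot be told apart in these comparisons. Over all cells Tcfl5 (149 CPM in A0 and 315 in BA10, 1.07) was the 1 gene higher past 2-fold (15.2% of all genes were), and Fhl5 (453 and 42.4 CPM, -3.39), Camk4 (99.7 and 16.3 CPM, -2.54) and Sox30 (106 and 43.5 CPM, -1.27) were the 3 lower past it (20.2% were). Rfx2 and Tbpl1 were at 0.77 and 0.56, Taf7l at -0.90, Crem at -0.38, Brdt at -0.12, and the interval of Mybl1 (-0.09 to 0.05) included 0. Spermatid-like cells differed in number, with 4953 in A0 and 423 in BA10, of which 18 were elongating spermatid-like, and this mix enters the pooled ratios.

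Within pachytene spermatocyte-like cells (938 in A0 from clusters 4 and 9, 1050 in BA10 mostly from cluster 15) Mybl1 joined Fhl5 and Camk4 among the genes lower in BA10 past 2-fold, and Sox30 was inside that limit. Mybl1 had 88.1 CPM in A0 and 35.3 CPM in BA10 (-1.30, -1.39 to -1.20), and Brdt had 250 and 172 CPM (-0.54, -0.59 to -0.49). Both were lower in BA10 under every alternative clustering, with ranges of -1.31 to -1.11 and -0.54 to -0.48. Mybl1 was thus lower in BA10 within this class, while its level over all cells did not differ beyond its counting interval. The class held 27.8% of the BA10 cells and 10.5% of the A0 cells, and the part of these shares was not tested. With the main clusters Mybl1 was not lower everywhere. In round spermatid-like cells it was at 5.5 CPM in A0 and 7.61 CPM in BA10 (0.40, 0.03 to 0.77). The sign of that ratio reversed with finer clusters and with fewer variable genes. In the unnamed cluster 13 (106 and 112 cells, a comparison chosen after the data were seen) Mybl1 was at 10.2 and 32.6 CPM (1.59, 0.83 to 2.44). Fhl5 stood at 579 and 40.1 CPM in that cluster, and whether its A0 and BA10 cells match in stage was not tested. Thinned to 2900 UMIs, 23.5% of A0 and 11% of BA10 pachytene spermatocyte-like cells had a Mybl1 UMI. Before thinning the shares were 84.2% and 68.3%, at medians of 21490 and 33017 UMIs. In A0 the class had cells of cluster 9, with 101 CPM of Mybl1 and 327 CPM of Brdt, and of cluster 4, with 83.6 and 225 CPM. Cluster 15 of BA10 had 35.4 and 172 CPM, below both. Sox30 had 51.2 and 31 CPM (-0.71). Tcfl5 (396 and 430 CPM, 0.12), Rfx2 (113 and 131 CPM, 0.22), Tbpl1 (1061 and 1090 CPM, 0.04) and Crem (266 and 265 CPM, -0.01) differed little, and Tbpl1 changed sign between clusterings (-0.09 to 0.04).

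Fhl5 and Camk4 were at 55.1 and 11.6 CPM in pachytene spermatocyte-like cells of A0 and at 4.65 and 1.69 CPM in those of BA10 (-3.31 and -2.23). Prm1 stood at 2363 CPM in this class of A0 and at 57.9 CPM in that of BA10, and Insl3, a Leydig cell gene, at 0.295 and 37.3 CPM. The part of free RNA in the difference was not tested. Of the 9 genes at 10 CPM or more in either library, 3 were lower past 2-fold (Mybl1, Fhl5 and Camk4), where 11.9% of all genes at 10 CPM were, and 0 were higher, where 1.25% were. Fhl5 and Camk4 reached the minimum of 10 CPM through A0 alone. The median of the 10 genes was -0.33 beside -0.05 for all genes.

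In late spermatocyte-like cells (2226 in A0 from clusters 0, 7 and 14, 1418 in BA10 from cluster 22) Mybl1 had 52.6 CPM in A0 and 28.6 CPM in BA10 (-0.86), and Brdt 196 and 137 CPM (-0.51). Tcfl5 was higher in BA10, at 201 and 260 CPM (0.37), and Rfx2, Tbpl1 and Crem lay between -0.14 and 0.16. Fhl5 (82.6 and 5.98 CPM, -3.58) and Camk4 (17.5 and 2.77 CPM, -2.30) were the 2 of 9 genes at 10 CPM that were lower past 2-fold (10.8% of all genes), and 0 were higher (1.97%), and both reached 10 CPM through A0 alone. Both depended on the clustering, which changed the cells of either library in the class: over the other clusterings Fhl5 ranged from -2.36 to -1.10 and Camk4 from -1.19 to 0.02. Prm1 was at 2450 CPM in this class of A0 and 39 CPM in that of BA10, and its part was not tested.

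In round spermatid-like cells (2445 in A0 from clusters 2, 6, 12 and 16, 405 in BA10 mostly from cluster 25) Fhl5 had 748 CPM in A0 and 328 CPM in BA10 (-1.19, -1.24 to -1.13). It was the 1 of 9 genes at 10 CPM that was lower past 2-fold (10.6% of all genes), and 0 were higher (10.1%). The median of the 10 genes was -0.21 beside 0.21 for all genes. Camk4 had 203 and 132 CPM (-0.62) and Sox30 164 and 119 CPM (-0.46), while Crem, at 710 and 644 CPM, was at -0.14. Tcfl5 (61.7 and 113 CPM, 0.86), Tbpl1 (630 and 1091 CPM, 0.79) and Rfx2 (41.3 and 62.9 CPM, 0.60) were higher in BA10, and Brdt was lower (167 and 129 CPM, -0.37). Cluster 25 scored 0.548 for round spermatid and 0.441 for late spermatocyte markers. It had 307 CPM of Fhl5, 1116 of Tbpl1 and 115 CPM of Tcfl5. With finer clusters (resolution 2, where the main setting was 1), which left 179 BA10 cells in the class, Fhl5 was at -0.15, Tcfl5 at 0.16, Tbpl1 at 0.19 and Camk4 at 0.32, so the round spermatid-like differences moved with the cells taken into the class. Over the clusterings tried, Crem stayed at -0.15 to -0.09 and Brdt at -0.56 to -0.37.

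**Figure D4:**
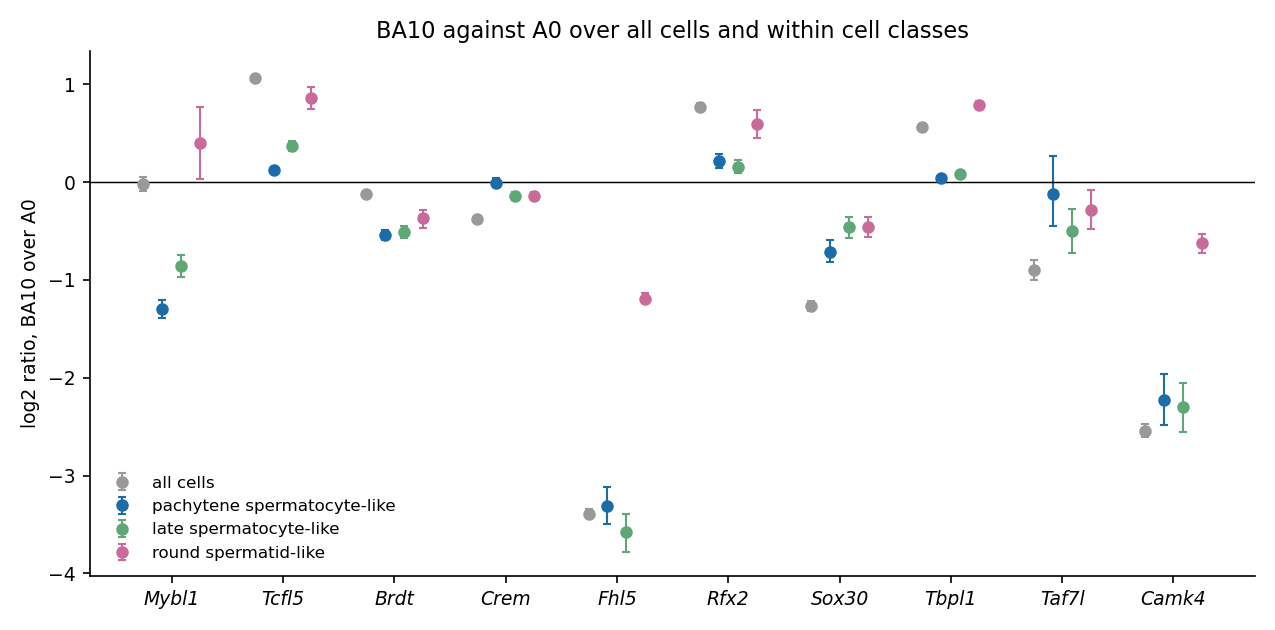
Log2 ratio of BA10 over A0 (vertical axis) for each gene over all cells and within 3 germ cell classes, with 95% counting intervals as bars and a line at 0. Mybl1 lies at -0.02 over all cells but at -1.30 and -0.86 within the spermatocyte-like classes, and Fhl5 and Camk4 lie lowest in both spermatocyte-like classes.

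Broadly expressed relatives of the 10 genes were measured in the same classes. In A0, Tbp was highest in late spermatocyte-like cells, as Tbpl1 was, with 70.8 CPM in pachytene spermatocyte-like, 118 in late spermatocyte-like, 38.4 in round spermatid-like and 18.6 CPM in elongating spermatid-like cells. Taf7 had 40.9, 17.9, 6.8 and 4.9 CPM in the same order, and was thus highest in the class in which its relative Taf7l was lowest. Rfx1 (2.45, 10.5, 28.2 and 12.7 CPM) was highest in round spermatid-like cells, where Rfx2 had passed its peak. Brd2, a relative of Brdt, had 271, 393, 160 and 68 CPM. Creb1, a relative of Crem, stayed between 2.19 and 8.04 CPM, while Atf1, another relative, had 72.6, 134, 125 and 99.1 CPM. Fhl3, a relative of Fhl5, had 0 UMIs in all 4 classes but 8.13 CPM in Leydig-like cells of B0. Over all cells 8 of 15 relatives were higher past 2-fold in B0 than in A0 and 0 lower, with a median of 1.18, where 42.8% of all genes were higher and 22.7% lower and the median of all genes was 0.51. At the common UMI limit 5 of the 15 were higher and 0 lower (median 0.68 beside 0.25), where 16.1% of all genes were higher. The lists here and below were counted without the minimum of 10 CPM that the shares of all genes use. Fhl1 (6.91 CPM in B0), Fhl2 (6.52 CPM) and Fhl3 (5.37 CPM), under that minimum in both libraries, are among the 8, so the count is not read against the share. The relatives were led over all cells by Camk2d (4.81), which had 62.7 CPM in the Leydig-like cells. The 10 genes had a median of -1.23 in that comparison over all cells and of 0.01 at the common UMI limit.

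Genes described as acting downstream of the 10 were counted in the same way. Of the CREM and FHL5 genes, Prm1, Prm2, Tnp1, Tnp2, Odf1 and Smcp were also elongating spermatid markers, and Ldhc a pachytene spermatocyte marker. With 6 spermatid-like cells in B0 and 4953 in A0, the cell mix enters these ratios, and its part was not tested. Of 11 partners and described targets of CREM and FHL5, 11 were lower past 2-fold in B0 than in A0 (median -2.52), where 22.7% of all genes were lower with a median of 0.51, among them Prm1 (-8.42), Tnp2 (-8.53), which encodes a transition protein, and Smcp (-4.74), of the sperm mitochondrial capsule. At the common UMI limit 7 of the 11 were lower past 2-fold (median -1.26), where 11.7% of all genes were. In BA10 over B0, 7 of the 11 were higher past 2-fold and 0 lower (median 1.62), where 18.8% of all genes were higher, and at the common UMI limit 3 were higher (Prm1 2.45, Prm2 2.92 and Tnp2 1.95) and 1 lower, Odf1 (-1.23), beside 1.14% and 14.1%. In BA10 over A0, 8 of the 11 were lower past 2-fold and 0 higher (median -2.08). Ldhc (0.18), Gtf2a1l (0.13) and Spag8 (0.38), the others, were above 0. Of 6 piRNA pathway genes described as A-MYB targets, 1 was higher past 2-fold in BA10 over A0, Piwil1 (1.25), and 0 lower, with a median of 0.39. Piwil1 and Mael of this list were also pachytene spermatocyte markers. Pachytene spermatocyte-like cells were 27.8% of BA10 and 10.5% of A0. The list was not measured within that class, where Mybl1 was lower in BA10. Of 10 cilium and flagellum genes of the kind RFX factors act on, 1 was lower past 2-fold, Ift172 (-2.26), and 0 higher, with a median of 0.01. In BA10 over B0, 3 of the 6 A-MYB targets and 5 of the 10 cilium genes were higher past 2-fold and 0 lower, beside 18.8% and 39.5% of all genes, and at the common UMI limit 0 of either list were past 2-fold. In B0 over A0, 3 of the A-MYB targets were lower and 1 higher (median -0.74) and 6 of the cilium genes were lower and 0 higher (median -1.26). At the common UMI limit the A-MYB targets had 0 lower and 1 higher, and the cilium genes 1 lower and 0 higher. All genes had a median of 0.34 in BA10 over A0, with 15.2% higher and 20.2% lower past 2-fold. Of 21 other germ cell transcription regulators, 10 were lower and 6 higher past 2-fold in B0 over A0, beside 22.7% and 42.8% of all genes. At the common UMI limit 4 were lower and 2 higher, beside 11.7% and 16.1%. Over all cells they ranged from -4.16 (Spz1) to 4.18 (Zbtb16, a gene known from undifferentiated spermatogonia). The 8 spermatogonium markers, Zbtb16 among them, summed to 230 CPM over all B0 cells and to 248 CPM in Leydig-like cells of B0. Over all B0 cells Kit, another of these markers, was at 101 CPM and Zbtb16 at 31.7 CPM. Zbtb16 itself was not measured by cell class, so its rise was not traced to a cell type. At the common UMI limit the range was from -2.50 (Spz1) to 1.68 (Dmrt1), with Zbtb16 at 0.52 (-0.03 to 1.13). Of the 21, 6 were lower and 2 higher in BA10 over A0, where Stra8 was highest at 1.36.

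The genes with the courses most like those of the 10 were taken from 9352 genes by the Pearson correlation of log2 levels over the 15 A0 clusters, a description with no test. They were Fam213a for Mybl1 (0.994 in A0, 0.983 in A10), LOC100862470 for Tcfl5 (0.991, 0.983), Irak1bp1 for Brdt (0.995, 0.982) and Ap1m1 for Rfx2 (0.994, 0.971). For the later genes they were Dpy19l2 for Tbpl1 (0.996, 0.997), BC048502 for Crem (0.988, 0.978), Ormdl3 for Camk4 (0.991, 0.988), 1700023F06Rik for Fhl5 (0.996, 0.996) and Sh3yl1 for Sox30 (0.984, 0.963). Dpy19l2 is known for a role in acrosome formation. Taf7l had the lowest best match, Sptbn1 (0.966, 0.965), followed by Tex15 (0.961, 0.958), a gene of meiotic cells. The next genes were Srrt (0.989) for Mybl1, Cherp (0.988) for Tcfl5, Uqcrb (0.993) for Brdt, Trim28 (0.992) for Rfx2, Cep72 (0.996) for Tbpl1, Ccdc89 (0.988) for Crem, Stpg3 (0.990) for Camk4, Abhd2 (0.994) for Fhl5 and Rnf4 (0.979) for Sox30.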

How the data were processed

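Droplet 3′ single-cell RNA sequencing was analysed from 4 testis libraries, 1 per group. The authors mapped reads to the mouse genome build mm10 with Cell Ranger 2.2.0, per the submitters' processing notes. The deposited values are the natural log of 1 plus UMIs scaled to 10000 per cell. From the step between values, 100% of the values above 0 came out as whole UMIs (tolerance 0.001), so counts were used throughout. How cells were called is not settled by the sources used here, and the libraries start at different UMI limits. Doublets called with Scrublet in scanpy (0.0859% to 8.66% per library, expected 6%) were kept. The B0 share lay below what a working caller gives.

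Cells were clustered with scanpy 1.11.5 and igraph 0.11.9 (2000 variable genes without the 10 genes and their relatives, 30 components, 15 neighbours, resolution 1). Clusters were named where a marker score led by 0.1 with at least 3 markers detected. The lead was taken over classes of other broad cell types only. No lead was needed among the spermatocyte classes, or between the round and elongating spermatid classes. A cluster whose leading genes pointed to a different class also stayed unnamed (clusters 1, 13 and 18). The 0.1 margin and the exclusion of clusters with germ and somatic markers together (score 0.25 or more) were set after the scores were seen. The 10 genes, the gene lists, the marker lists and the tests were chosen with earlier results of these data known. Levels were UMIs per 1000000 with exact Poisson intervals (scipy 1.17.1), and ratios were compared with genes at 10 CPM or more in either group. Classes with under 50 cells in a library were not compared. The text names all 10 genes, any gene of the fixed lists (the few a sentence turns on, the rest by counts) and, for each of the 10, the 2 genes most correlated with it over the clusters with at least 50 A0 cells. Ratios were recomputed with 10 CPM added, at the common UMI limit, as means over cells, with the median of all genes set to 0, with genes at 1 CPM or more, without the called doublets and under 4 other class assignments. The ratios and their intervals were tested on simulated Poisson counts with known folds. The other steps were not tested in that way. Gene positions are those of GENCODE M21.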

Additional observations from a re-analysis of the deposited data

Results flagged for a closer look

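For 6 genes the ratio of A10 over A0 and the ratio of BA10 over B0 had opposite signs over all cells. With 1 library per group the difference between the ratios was not tested. The difference of the log2 ratios was 2.09 for Rfx2 (-0.07 without and 2.03 with busulfan), 1.50 for Crem (-0.12 and 1.38), 1.26 for Sox30 (-0.23 and 1.03), 0.97 for Brdt (-0.09 and 0.88), 0.96 for Fhl5 (-0.22 and 0.74) and 0.59 for Camk4 (-0.24 and 0.35). At the common limit of 9013 UMIs only Rfx2 among these had opposite signs (-0.04 and 0.63). The pairs there were -0.13 and -0.01 for Crem, -0.19 and -0.31 for Sox30, -0.07 and -0.18 for Brdt, -0.19 and -0.89 for Fhl5 and -0.22 and -1.11 for Camk4.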

How the results depend on the processing

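With 1 library per group, mice cannot be told apart within a library and intervals cover counting error only. The libraries start at different UMI limits, and the common limit changes both the depth and the cell mix of B0. No paired analysis was possible because each group is a single library. Where values moved, the cause was not tested beyond what each setting changes.

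The median of the 10 genes for B0 over A0 was -1.23 and became -1.12 with 10 CPM added, 0.01 at the common UMI limit, -2.09 as a mean over cells and -1.74 with the median of all genes set to 0. For BA10 over B0 it was 0.96 and became 0.81, -0.24, 1.95 and 1.34 in the same order. For BA10 over A0 it was -0.25, and -0.18 as a mean over cells and -0.59 with the median of all genes set to 0, which gave -0.08 for A10 over A0. Within late spermatocyte-like cells BA10 over A0 was -0.48, and -0.25 at resolution 0.5, -0.11 at resolution 2, -0.08 with 1000 variable genes and -0.21 with the class taken from each cell. Within round spermatid-like cells it was -0.21, and 0.05 at resolution 2, -0.09 with 1000 variable genes and -0.02 with the class from each cell. At resolution 0.5 this comparison was not run, since 14 BA10 cells were left. With genes at 1 CPM or more, 0.106% of genes were lower past 2-fold in A10 over A0.

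Signs changed at the common UMI limit for B0 over A0 in Mybl1 (0.69), Tcfl5 (0.27), Brdt (0.04), Rfx2 (0.12), Tbpl1 (0.20) and Taf7l (-0.03, and -0.35 with the median of all genes set to 0). For BA10 over B0 they changed in Mybl1 (-0.74), Brdt (-0.18), Crem (-0.01), Fhl5 (-0.89), Sox30 (-0.31) and Camk4 (-1.11). Under other class assignments BA10 over A0 changed sign for Tbpl1 in pachytene spermatocyte-like cells (-0.09 at resolution 0.5, -0.05 at resolution 2, -0.04 with 1000 variable genes, -0.07 with the class from each cell) and in late spermatocyte-like cells (-0.01 at resolution 2, -0.03 with 1000 variable genes), where Camk4 was at 0.02 with 1000 variable genes. In round spermatid-like cells it changed for Mybl1 (-0.36 at resolution 2, -0.30 with 1000 variable genes), Camk4 (0.32 and 0.21), Sox30 (0.02 at resolution 2) and Taf7l (0.08 at resolution 2, 0.02 with the class from each cell). Tcfl5 in elongating spermatid-like cells was at 0.00 for A10 over A0 at resolution 0.5. Of the values of single genes, 386 stayed within the interval of the main value and 236 moved out of it. Another 28 reversed, which was counted only where the main interval excluded 0.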
